A study of Homo sapiens with 9 samples.

Results

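Transcripts of 8 enzymes that move nitrogen between glutamine, glutamate, aspartate, asparagine, alanine and proline were examined in BCKDK-edited and control H1299 cells. The genes were taken by name: ASNS, GPT2, GOT1, GOT2, GLUD1, GLUL, PYCR1 and ALDH18A1. All 8 were found among the 58735 genes of the deposited table. H1299 is an established non-small cell lung cancer line, labelled here as lung adenocarcinoma cells. The control group, Vector, is labelled wild type and was transduced with the lentiCRISPR v2 plasmid. KO1 and KO2 are labelled BCKDK Knockout, and each is 1 monoclonal line picked by limited dilution after CRISPR editing. Each group has 3 libraries, and the labels do not say whether these came from separate cultures, so p-values measure only the spread between libraries, which may be technical. Only the knockout lines are described as clones, so effects of the edit and of picking 1 cell cannot be told apart, and for BCKDK knockout in general n is 2 clones. The labels give no drug treatment.

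BCKDK is the kinase that switches off branched-chain ketoacid dehydrogenase, a mitochondrial complex. The step before that complex is a transamination in which leucine, isoleucine or valine hands its amino group to alpha-ketoglutarate, making glutamate. Glutamate then passes nitrogen on: GLUL adds ammonia to make glutamine, GLUD1 releases ammonia again, GOT1 and GOT2 make aspartate, GPT2 makes alanine, ASNS makes asparagine from aspartate and glutamine, and ALDH18A1 and PYCR1 turn glutamate into proline. ASNS, GPT2, PYCR1 and ALDH18A1 are known targets of the amino acid response factor ATF4, which acts through a short promoter element shared with C/EBP factors.

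BCKDK transcript checked the labels: the mean was 14.7 ± 2.47 FPKM for Vector, against 1.88 ± 0.201 for KO1 and 0.497 ± 0.184 for KO2 (SD, n = 3). FPKM here is a read count divided by the length of all annotated exon bases and by a size factor of the library. Levels of different genes can thus be set side by side only roughly, as genes with many annotated exon bases can read low. The libraries held 16002212 to 17090445 recovered reads. The third library of Vector and that of KO2 differed most from their groups, with chi-square per degree of freedom of 39.1 to 46.4 against the libraries of their own group, where the other pairs within groups gave 2.35 to 6.21. All 6 markers of lung adenocarcinoma (NKX2-1, NAPSA and surfactant genes) were below a mean of 0.5 FPKM, as were the 5 leukocyte, 3 endothelial and 4 fibroblast markers, and SFTPD was at 0 in every library. Of 6 epithelial markers only KRT8 and KRT18 passed that level. Their list summed to 66.8 to 91.9 FPKM in Vector, 426 to 490 in KO1 and 102 to 121 in KO2, and its part in the results below was not tested. In bulk RNA, fewer cells of a kind and less RNA per cell cannot be told apart.

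Promoter sequence is shown for the 3 enzymes whose windows held one of 2 motifs, so that the levels below can be read beside it. RefSeq windows of GRCh38.p14, running from 250 bases before to 50 after a gene's start, were found for 6 of the 8 enzymes, and none was matched for GPT2 and PYCR1. The motifs were TGATGNAA, the core of the C/EBP-ATF element, and CACGTG, the E-box bound by MYC and related factors, searched on both strands. No window shown held both. TGATGNAA occurs in 3.62% of all 35116 windows and CACGTG in 7.26%. Each stretch runs 5′ to 3′ on the gene's strand, which is minus for all 3, and capitals mark the motif. The RefSeq start used for GOT1 lies inside the gene span given below.
ASNS, chr7:97872458-97872487, motif from 68 bases upstream of the start: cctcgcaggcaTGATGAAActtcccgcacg
GOT1, chr10:99430804-99430833, motif on the opposite strand, from 198 bases upstream: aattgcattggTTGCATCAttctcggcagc
ALDH18A1, chr10:95656831-95656858, E-box from 136 bases upstream: ggctggcccgcCACGTGgagcgctggct
A match describes these letters only, and no match in the windows of GLUL, GLUD1 and GOT2 says nothing of any factor.

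The enzymes did not move as a block, and the clones differed. In KO1, 1 of 8 rose (GPT2) and 2 fell (GLUL and ASNS), while the other 5 did not pass the test. In KO2, 0 rose and 5 fell (ASNS, GOT1, GLUD1, GLUL and ALDH18A1). Over all 16426 genes tested, limma called 34.1% in KO1 (17.4% higher and 16.7% lower) and 27.9% in KO2 (12.9% higher and 15% lower), at a Benjamini-Hochberg adjusted p under 0.05. The count of 3 of 8 in KO1 is thus near that background. With every FPKM library rescaled to the same sum, the KO1 calls over all genes split into 2104 higher and 3244 lower in place of 2865 and 2744, and the enzymes' calls stayed at 1 higher and 2 lower. The median difference of the 8 enzymes was 0.04 in KO1 and -0.48 in KO2 on the log2(FPKM + 1) scale, beside 0.01 and 0 over all genes tested. This scale understates changes of low genes, and all differences below are on it. Both clones are compared with the same Vector libraries. Without Vector replicate 3 and KO2 replicate 3, a setting chosen after seeing the data, 5 enzymes were called in each clone: PYCR1 and ALDH18A1 were added in KO1. For ALDH18A1 in KO1 that value was -0.14 (limma adjusted p = 0.0462).

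**Figure D1:**
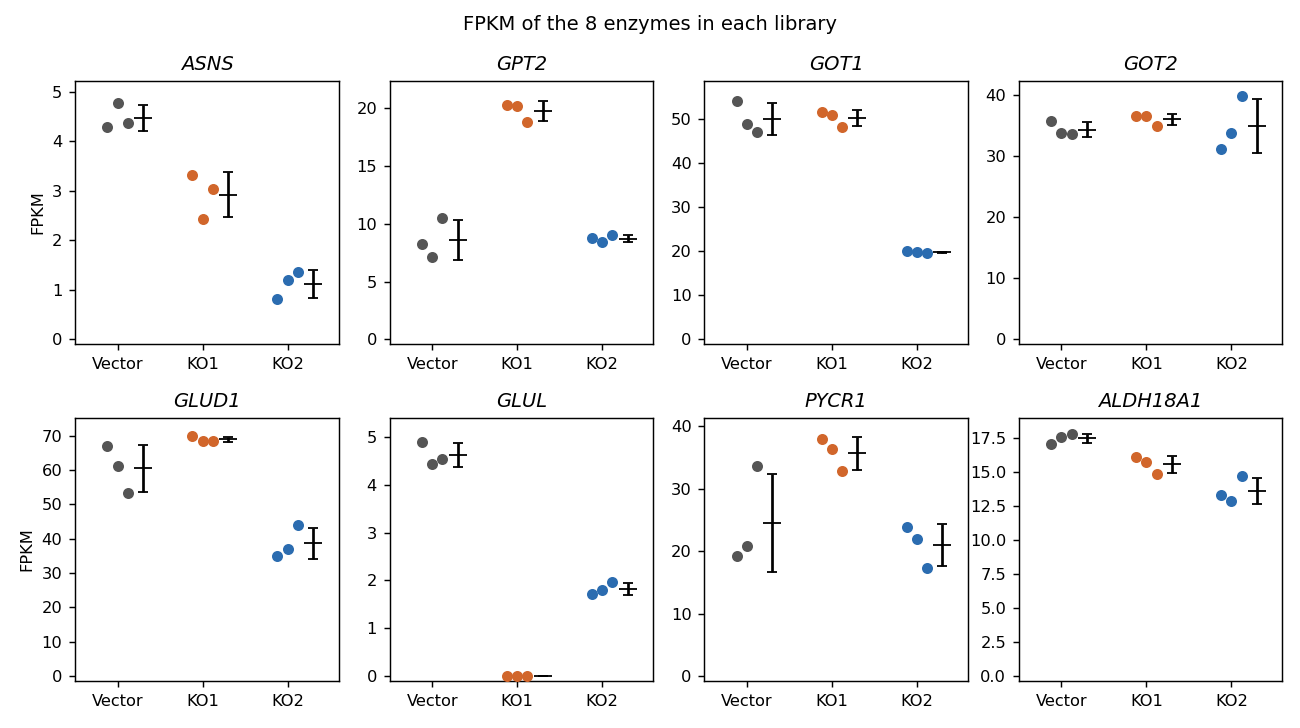
FPKM (linear axis, from 0) of each enzyme in the 3 libraries of Vector, KO1 and KO2, with points for libraries and bars for the mean ± SD (n = 3). GLUL is at 0 in all 3 KO1 libraries, GPT2 is high only in the KO1 libraries, GOT1 is low only in the KO2 libraries, and ASNS steps down from Vector to KO1 to KO2.

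GLUL, glutamine synthetase, gave the widest difference among the 8 enzymes. The gene (ENSG00000135821) lies at chr1:182381704-182392206 of hg38, minus strand. The Vector libraries gave it 4.9, 4.43 and 4.54 FPKM, against 0 in each of the 3 KO1 libraries and 1.72, 1.79 and 1.97 FPKM in those of KO2. Each KO1 library held 0 reads of GLUL, where the Vector libraries held 729, 678 and 720 and the KO2 libraries 275, 289 and 288. No library of one group overlapped those of another. Taking 3 reads per library as the floor that a count of 0 allows, which is 0.0208 FPKM at most, GLUL was at least 222-fold lower in KO1 than in Vector. The fitted difference was -2.49 (SE 0.09, limma adjusted p = 3.59e-07), which the added 1 FPKM limits, so it is no measure of the fold. In KO2 the mean was 0.395 times that of Vector (difference -0.99, SE 0.09, limma adjusted p = 9.47e-05). The step from KO1 to KO2 passed as well (1.5, limma adjusted p = 9.79e-06).

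The tested genes around GLUL did not share its level in KO1. The 41 tested genes within 5 Mb had a median difference of 0.21 in KO1 and 0.07 in KO2, and 0 of the 41 lay below GLUL in KO1. The nearest tested genes on either side were DHX9, an RNA helicase, and IER5, an immediate-early gene. Their midpoints lie at 0.477 Mb (DHX9) and -1.296 Mb (IER5) from that of GLUL. No other gene between them was tested, so the tested neighbours do not describe the stretch closest to GLUL. DHX9 measured 40.9 ± 4.56 FPKM in Vector and 32.5 ± 0.533 in KO1, and IER5 measured 3.17 ± 1.09 and 12.1 ± 1.27 (SD, n = 3). Both were thus read in KO1, in which GLUL had no read. RGS16, which lies closer to GLUL than DHX9 does, was too low to be tested. It held 13, 7 and 14 reads in the Vector libraries, 1, 3 and 0 in KO1 and 15, 20 and 6 in KO2. RGS16 was thus also lower in KO1, on few reads, and any link to GLUL was not tested. GLUL was not alone in reaching 0: of 8382 genes that averaged 4 FPKM or more in Vector, a level chosen after GLUL was seen, 14 had 0 reads in all KO1 libraries and 8 in all KO2 libraries. Of the processed copies of GLUL, GLULP3 and GLULP5 were at 0 throughout and GLULP4 and GLULP6 held at most 2 reads in a library. Reads with several matches may have been dropped, and their part in the GLUL count was not tested.

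**Figure D2:**
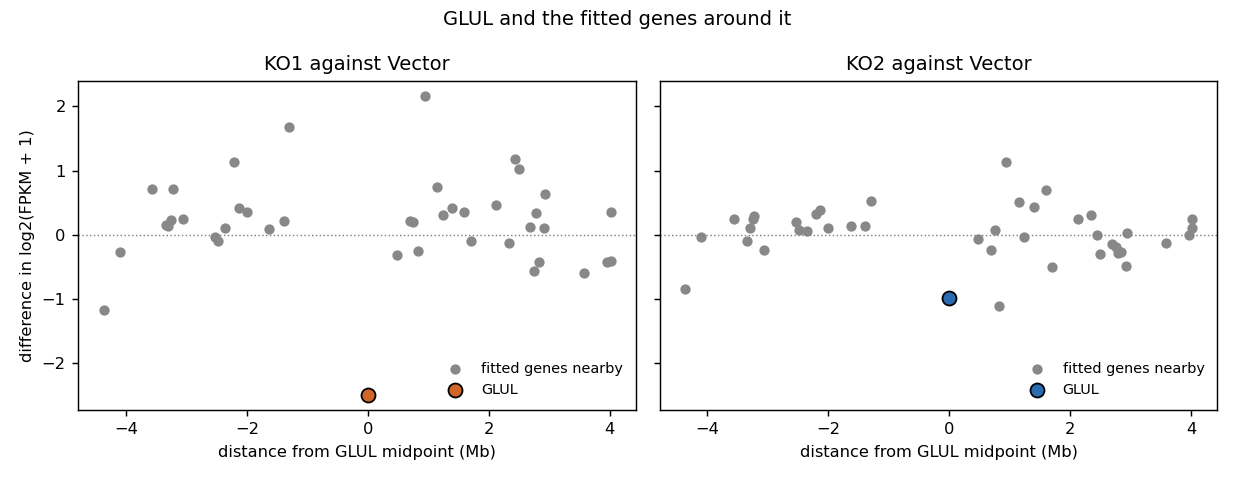
Difference in log2(FPKM + 1) against Vector (vertical axis) of GLUL and of the 41 tested genes within 5 Mb, by distance from GLUL (Mb, horizontal axis), for KO1 (left) and KO2 (right). In KO1 GLUL, at -2.49, lies under every neighbour, the lowest of which is at -1.17; in KO2 1 neighbour lies under GLUL.

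GLUD1, the mitochondrial glutamate dehydrogenase, was the most abundant of the 8 transcripts in Vector and was lower in KO2. The gene (ENSG00000148672) lies at chr10:87050486-87094866, minus strand. It measured 67, 61.3 and 53.3 FPKM in the Vector libraries, 69.9, 68.4 and 68.6 in those of KO1 and 35.1, 36.9 and 43.9 in those of KO2. The KO2 libraries lay below all others, and the KO1 libraries lay just above Vector. GLUD1 fell in KO2 by 0.63 (SE 0.12, limma adjusted p = 0.00461), whereas the KO1 value of 0.19 did not pass (95% interval -0.08 to 0.46, limma adjusted p = 0.25). Without Vector replicate 3 and KO2 replicate 3 the KO2 difference was -0.81. Neighbours within 5 Mb had a median of -0.27 in KO2. With neighbours subtracted library by library, GLUD1 stood at -0.33 in KO2, which still passed (limma adjusted p = 0.0158). In KO1 the neighbours were at -0.21, and GLUD1 with neighbours subtracted in the same way rose by 0.43 (limma adjusted p = 0.00348). Reads of close copies are a limit here. GLUD2, a near-identical retrocopy, averaged 0.393 FPKM in Vector, and the pseudogene GLUD1P3 averaged 4.43, 3.9 and 4.4 FPKM in Vector, KO1 and KO2. GLUD1 also shares 464 of its 3519 exon bases with SHLD2 on the other strand.

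Of the aspartate transaminases, the cytosolic GOT1 fell in KO2 and the mitochondrial GOT2 passed in neither clone. GOT1 (ENSG00000120053, chr10:99396870-99431569, minus strand) measured 54, 48.7 and 46.9 FPKM in the Vector libraries, 51.4, 50.8 and 48 in those of KO1 and 19.9, 19.7 and 19.6 in those of KO2. The KO2 libraries were tightly grouped and far below the rest, and the KO1 libraries sat inside the Vector range. The KO2 mean was 0.396 times the Vector mean (difference -1.29, SE 0.09, limma adjusted p = 1.85e-05). In KO1 the difference was 0.01 with a 95% interval of -0.2 to 0.21. Only 2 of 104 tested neighbours were lower than GOT1 in KO2, where their median was -0.22. GOT2 (ENSG00000125166, chr16:58707131-58734357, minus strand) measured 35.7, 33.7 and 33.6 FPKM in the Vector libraries, 36.5, 36.6 and 34.9 in those of KO1 and 31.1, 33.8 and 39.8 in those of KO2. All 3 groups overlapped for GOT2, and its intervals ran from -0.17 to 0.31 in KO1 and from -0.22 to 0.26 in KO2. GOT2 pseudogenes were at or near 0, with at most 2 reads in a library.

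The ratio of GOT1 to GOT2 therefore differed by clone. GOT1 stood at 1.51, 1.45 and 1.4 times the FPKM of GOT2 in Vector, at 1.41, 1.39 and 1.37 in KO1 and at 0.639, 0.583 and 0.493 in KO2. The cytosolic transcript was the more abundant of the pair in all Vector and KO1 libraries and the less abundant in all KO2 libraries. With 3 against 3 libraries an exact permutation test cannot go below p = 0.1, so no test of the ratio itself was run.

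GPT2, the mitochondrial alanine transaminase, was the 1 enzyme of the 8 that rose, and did so in KO1. The gene (ENSG00000166123) lies at chr16:46884378-46931297, plus strand. It measured 8.22, 7.09 and 10.5 FPKM in the Vector libraries, 20.3, 20.2 and 18.8 in those of KO1 and 8.78, 8.4 and 8.99 in those of KO2. KO1 lay above every other library and KO2 lay within the Vector range. The KO1 mean was 2.29 times that of Vector (difference 1.12, SE 0.13, limma adjusted p = 0.000216), and KO2 was lower than KO1 (difference -1.09, limma adjusted p = 0.000315). In KO2 against Vector the 95% interval ran from -0.26 to 0.32. All 24 tested neighbours lay below GPT2 in KO1, with a median of -0.03. GPT, the cytosolic form, was low throughout, at 0.722 ± 0.538 FPKM for Vector, 0.346 ± 0.0729 for KO1 and 0.794 ± 0.326 for KO2 (SD, n = 3). GPT2 made up 98.6%, 98.5% and 97.8% of the FPKM of the pair in KO1, against 88.7% to 95.6% in Vector and 88.2% to 93.7% in KO2.

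ASNS, asparagine synthetase, fell in both clones and further in KO2. The gene (ENSG00000070669) lies at chr7:97852118-97872542, minus strand, and holds the TGATGNAA match printed above. It measured 4.28, 4.77 and 4.37 FPKM in the Vector libraries, 3.31, 2.42 and 3.03 in those of KO1 and 0.813, 1.2 and 1.36 in those of KO2, from 64 to 360 reads per library. The 3 groups did not overlap. KO1 stood at 0.652 times the Vector mean (difference -0.49, SE 0.13, limma adjusted p = 0.0186) and KO2 at 0.251 times (difference -1.37, SE 0.13, limma adjusted p = 1e-04). KO2 was lower than KO1 by a difference of -0.88 (limma adjusted p = 0.00109). The KO1 call was lost without Vector replicate 2 (limma adjusted p = 0.0653), without KO1 replicate 2 (0.0795) and with the neighbours' medians subtracted (0.141), and the KO2 call held in every setting in which ASNS was tested. Sequence shared with other genes limits the ASNS values and its place in the order of levels. AC079781.5, a transcript on the same strand, shares 1985 of the 4455 ASNS exon bases and averaged 0.204, 0.0432 and 0.187 FPKM in Vector, KO1 and KO2, and how reads in the shared bases were assigned is not given. The pseudogene ASNSP1 averaged 3.73, 1.21 and 1.13 FPKM in Vector, KO1 and KO2, and AC005326.1, a 123-base pseudogene on the opposite strand within ASNS but outside its exons, averaged 13.1, 4.28 and 2.03 FPKM. ASNSP1 and AC005326.1 were lower in the clones than in Vector, and whether reads passed between them and ASNS was not tested.

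ATF4 transcript itself did not pass in either clone. Its mean was 162 ± 15.2 FPKM for Vector, 161 ± 8.96 for KO1 and 144 ± 27 for KO2 (SD, n = 3; differences 0 and -0.18, limma adjusted p = 0.999 and 0.425). ATF4 is controlled largely at translation, so its transcript level is not a measure of its activity. Of the 4 known ATF4 targets among the 8 enzymes, ASNS fell and GPT2 rose in KO1, and ASNS and ALDH18A1 fell in KO2.

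Of the enzymes called in KO2, ALDH18A1, a proline enzyme, changed least. ALDH18A1, which makes the intermediate pyrroline-5-carboxylate from glutamate (ENSG00000059573, chr10:95605929-95656706, minus strand), measured 17.1, 17.6 and 17.8 FPKM in the Vector libraries, 16.1, 15.8 and 14.9 in those of KO1 and 13.3, 12.9 and 14.7 in those of KO2. The groups did not overlap, with Vector highest and KO2 lowest. ALDH18A1 fell in KO2 by 0.34 (SE 0.09, limma adjusted p = 0.0206), and the KO1 value of -0.16 did not pass (limma adjusted p = 0.206). The KO2 call was lost without Vector replicate 2 (limma adjusted p = 0.0607), KO2 replicate 1 (0.0726) or KO2 replicate 2 (0.0839), and when only the Vector and KO2 libraries were fitted (0.094). With the replicate block its limma adjusted p was at the threshold, 0.05 as rounded. Neighbours within 5 Mb had a median of -0.28 in KO2, and with neighbours subtracted library by library ALDH18A1 stood at -0.08 (limma adjusted p = 0.548). GLUD1, ALDH18A1 and GOT1 lie on the same arm of chromosome 10. In KO2 the median of tested neighbours was negative around all 3, at -0.27, -0.28 and -0.22. These medians are not separate observations, as the 5 Mb window of ALDH18A1 shares genes with those of GLUD1 and GOT1. The ALDH18A1 difference was close to that of its neighbours, whereas GOT1 kept -1.16 after subtraction.

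PYCR1, the mitochondrial reductase that completes proline, differed between the clones more clearly than from Vector. The gene (ENSG00000183010) lies at chr17:81932384-81942412, minus strand. It measured 19.3, 20.8 and 33.6 FPKM in the Vector libraries, 37.9, 36.4 and 32.8 in those of KO1 and 23.8, 21.9 and 17.3 in those of KO2. Vector replicate 3 was as high as the KO1 libraries, so both clones overlapped Vector, but they did not overlap each other. The KO1 difference of 0.56 missed the threshold (SE 0.2, limma adjusted p = 0.0578) and was 0.8 without Vector replicate 3 (limma adjusted p = 0.00214). In KO2 the value was -0.19 (limma adjusted p = 0.524), and its sign turned to 0.05 without Vector replicate 3. KO2 against KO1 passed (-0.75, SE 0.2, limma adjusted p = 0.0203), but not with libraries rescaled to one FPKM sum (0.0669) or quantile normalised (0.0588), nor without KO1 replicate 1 (0.0707), KO1 replicate 2 (0.0639) or KO2 replicate 3 (0.0623). Neighbours of PYCR1 had a median of 0.33 in KO1.

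PYCR3, the cytosolic form of this reductase, ran the other way between the clones. It measured 4.93, 4.7 and 7.86 FPKM in the Vector libraries, 3.96, 4.47 and 4.21 in those of KO1 and 8.1, 7.26 and 7.2 in those of KO2. The clones did not overlap, and PYCR3 was higher in KO2 than in KO1 (difference 0.71, limma adjusted p = 0.00949), where PYCR1 was lower. Against Vector PYCR3 did not pass in KO1 (-0.36, limma adjusted p = 0.113) or KO2 (0.35, 0.139). Its neighbours had a median of 0.41 between the clones, and with neighbours subtracted the difference between the clones was 0.32 (limma adjusted p = 0.0115) and the KO1 value passed (-0.48, 0.00164).

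**Figure D3:**
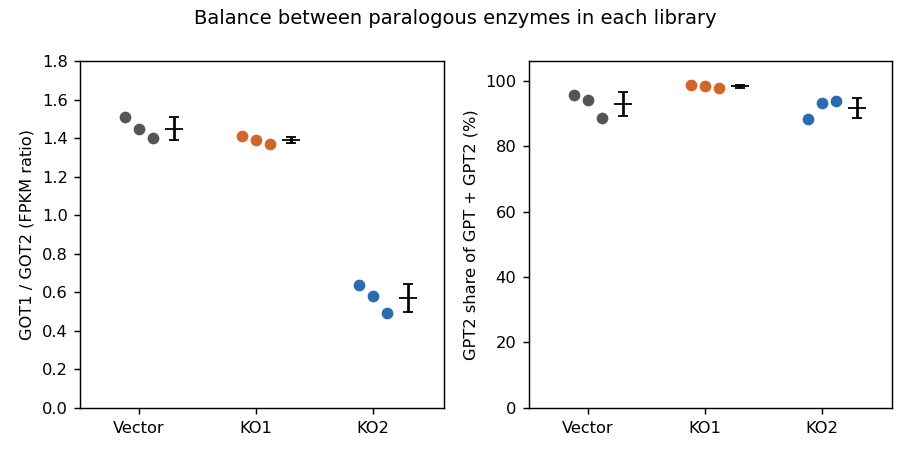
Left, GOT1 FPKM over GOT2 FPKM; right, GPT2 as a percentage of the FPKM of GPT and GPT2. Points are libraries of Vector, KO1 and KO2, and bars are the mean ± SD (n = 3). The GOT1 to GOT2 ratio is 0.493 to 0.639 in KO2 and at least 1.37 elsewhere.

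Compared directly, the clones differed in 6 of the 8 enzymes. In KO2 against KO1, GLUL was higher, ASNS, GPT2, GOT1, GLUD1 and PYCR1 were lower, and GOT2 (-0.05) and ALDH18A1 (-0.18) did not pass. Limma called 30.9% of all 16426 genes in this comparison, 14.5% higher and 16.4% lower. The libraries of the clones did not overlap in 7 of the 8 enzymes, where 53.6% of all tested genes showed no overlap. With libraries rescaled to one FPKM sum the calls over all genes split into 2894 higher and 1839 lower in place of 2386 and 2693, and the enzymes' calls into 1 higher and 4 lower in place of 1 and 5. Against Vector, 5 of 8 enzymes did not overlap in each clone, where 50.1% of tested genes did so in KO1 and 39% in KO2.

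**Figure D4:**
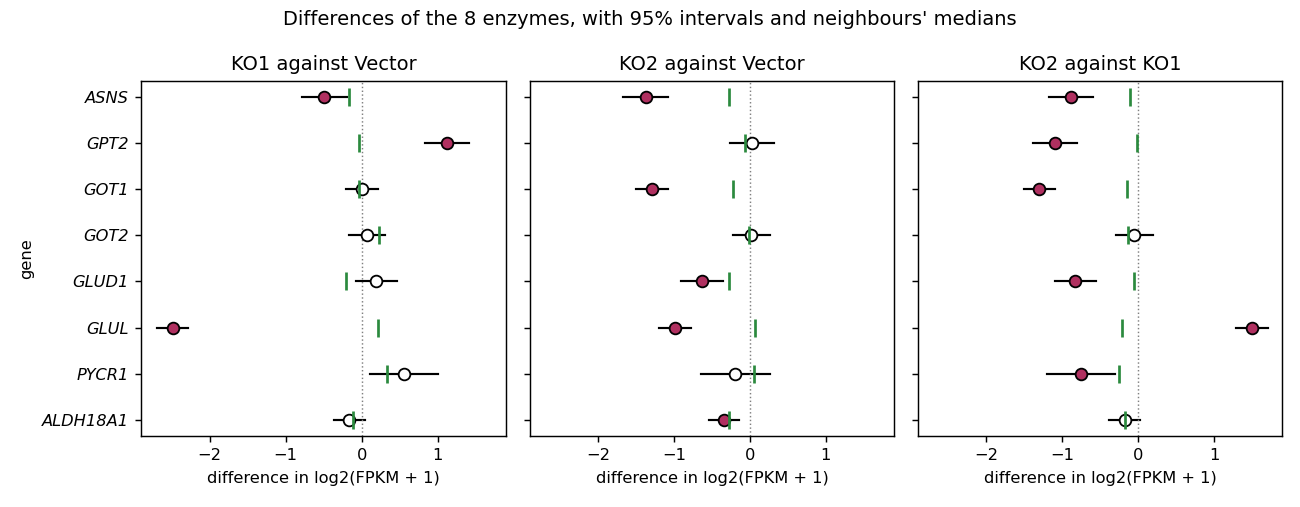
Difference in log2(FPKM + 1) of each enzyme (points) with its 95% interval (lines) in the 3 comparisons; filled points passed the limma test at an adjusted p under 0.05, and green ticks mark the median of tested genes within 5 Mb. GLUL is at -2.49 in KO1, 5 enzymes are filled to the left of 0 in KO2, and the ALDH18A1 point in KO2 lies beside its tick.

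In Vector the order of levels was GLUD1 (60.5 ± 6.86 FPKM), GOT1 (49.9 ± 3.68), GOT2 (34.3 ± 1.15), PYCR1 (24.6 ± 7.84), ALDH18A1 (17.5 ± 0.373), GPT2 (8.62 ± 1.76), GLUL (4.62 ± 0.247) and ASNS (4.47 ± 0.262) (SD, n = 3). GLUD1 and GOT1 overlapped, as did GLUL and ASNS. In KO1 GPT2 reached 19.7 ± 0.848 FPKM and stood above ALDH18A1 (15.6 ± 0.637). In KO2 GOT2 (34.9 ± 4.45) stood above GOT1 (19.7 ± 0.134), which overlapped PYCR1 (21 ± 3.32), and ASNS (1.12 ± 0.281) remained lowest. FPKM divides by all annotated exon bases, 9032 for GLUL and 2886 for PYCR1, so genes with long merged models can read low.

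In the lists of related enzymes that follow, counts are read beside the share of all genes called, 34.1% in KO1 and 27.9% in KO2. Of 11 glutaminases and glutamine amidotransferases, 9 were tested; 2 rose and 1 fell in KO1, and 0 rose and 1 fell in KO2. The count of 3 of 9 in KO1 is near the share over all genes. The list's median was 0.08 in KO1 and -0.11 in KO2. GFPT1, which opens hexosamine synthesis, rose in KO1 from 11.5 ± 1.79 to 15.3 ± 0.594 FPKM (difference 0.38, limma adjusted p = 0.0354). GFPT2, its paralog, fell in KO1 by 0.48 (limma adjusted p = 0.0132). CTPS1, which makes CTP with nitrogen from glutamine, fell in KO2 from 10.3 ± 0.0299 to 5.71 ± 0.351 FPKM (difference -0.75, limma adjusted p = 0.000275).

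Another list holds genes that use aspartate or run the malate-aspartate shuttle, in which GOT1 and GOT2 take part. Of 14 genes 13 were tested; 1 rose and 4 fell in KO1, and 2 rose and 5 fell in KO2, with medians of -0.1 and -0.35. The 5 calls in KO1 are near the share over all genes, and whether the 7 in KO2 differ from it was not tested. SLC25A11, the malate and oxoglutarate carrier, rose in KO1 from 14.5 ± 2.69 to 24.6 ± 0.89 FPKM (difference 0.74, limma adjusted p = 0.00226; 0.43 with neighbours subtracted, 0.00729). ADSSL1, an adenylosuccinate synthase, fell in KO1 from 5.82 ± 0.973 to 1.24 ± 0.266 FPKM (difference -1.6, limma adjusted p = 3.3e-05). ASS1, which joins aspartate to citrulline, fell in KO1 from 1.24 ± 0.265 to 0.00647 ± 0.0112 FPKM (difference -1.15, limma adjusted p = 0.000394). ASPG, an asparaginase, rose in KO2 from 0.45 ± 0.207 to 1.61 ± 0.388 FPKM (difference 0.84, limma adjusted p = 0.00347). SLC25A13, an aspartate-glutamate carrier of the shuttle, fell in KO1 by 0.67 and in KO2 by 0.59 (limma adjusted p = 0.0016 and 0.0042), and with neighbours subtracted the KO2 call was lost (-0.33, 0.119). NAT8L, which acetylates aspartate, also fell in both clones (-1.42 and -1.12, limma adjusted p = 0.00153 and 0.00681). Among the shuttle enzymes, MDH1 fell in KO2 by 0.57 and MDH2 by 0.62 (limma adjusted p = 0.0122 and 0.00633).

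Of 8 other proline and ornithine enzymes 5 were tested; 0 rose and 1 fell in KO1, and 0 rose and 0 fell in KO2, with medians of -0.22 and -0.26. OAT, which links ornithine to the proline intermediate, fell in KO1 from 21.5 ± 4.57 to 11.6 ± 1.01 FPKM (difference -0.82, limma adjusted p = 0.00476). PRODH, which starts proline breakdown, was at or near 0 in every library. Of 14 other transaminases 8 were tested; 2 rose and 0 fell in KO1, and 1 rose and 1 fell in KO2, with medians of 0.12 and -0.03. Neither list's counts exceed the shares over all genes given above. BCAT1, the cytosolic branched-chain transaminase, rose in KO1 from 20.9 ± 3.8 to 34.6 ± 0.447 FPKM (difference 0.71, limma adjusted p = 0.015; 0.45 with neighbours subtracted, 0.0297). BCAT2, its mitochondrial counterpart, rose in both clones (0.5 in KO1 and 0.47 in KO2, limma adjusted p = 0.0289 and 0.0444). Both BCAT2 calls were lost with neighbours subtracted (0.24 in KO1 and 0.18 in KO2, limma adjusted p = 0.141 and 0.291), where the neighbours' medians were 0.23 and 0.4. PSAT1, the transaminase of serine synthesis, fell in KO2 from 192 ± 29.8 to 105 ± 5.39 FPKM (difference -0.85, limma adjusted p = 0.00128).

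Genes with the most similar pattern were sought among protein-coding genes averaging 5 FPKM or more, by Pearson correlation of log2(FPKM + 1) over the 9 libraries. These libraries form 3 groups of 3, so a high value mostly reflects a shared order of group levels. ASNS was nearest to EPG5 (r = 0.9791), MAPKAP1 (0.9728) and CEBPG (0.9681), the last a known partner of ATF4 that averaged 70.2, 35.4 and 14 FPKM in Vector, KO1 and KO2. GPT2 was nearest to BCL2L1 (0.9964), KLHL21 (0.9947) and UBN1 (0.9936), all high in KO1. GOT1 was nearest to ANTXR2 (0.9951), TRIP13 (0.9935) and KDSR (0.9929), all low in KO2. GLUD1 was nearest to SPATS2 (0.9998), KLHL5 (0.9943) and KCMF1 (0.9941). GLUL was nearest to LPIN1 (0.9919), CINP (0.9912) and DDX24 (0.9898), of which LPIN1 still averaged 7.56 FPKM in KO1. PYCR1 was nearest to HYOU1 (0.9964), CHTF18 (0.9905) and FOXD1 (0.99). ALDH18A1 was nearest to XPO5 (0.972), RFWD3 (0.9684) and AKAP12 (0.9677). GOT2, which varied least between groups, had lower values, among them CSNK2A2 (0.9048) and MT-ND4 (0.9033).

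Among the 8 enzymes themselves, the same measure over 9 libraries was highest for GOT1 with GLUD1 (0.94), ASNS with ALDH18A1 (0.93) and ASNS with GOT1 (0.91). It was 0.86 for GPT2 with PYCR1 and -0.9 for GPT2 with GLUL. The first 3 pairs are lowest in KO2, and GPT2 and PYCR1 are highest in KO1, where GLUL is at 0.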

How the data were processed

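The deposited table holds FPKM made by the authors, with no unit in the header. The submitters' processing notes name HISAT2 2.0.5, featureCounts 1.5.0-p3, CASAVA 1.6 and the build hg38. How strand and reads with several matches were treated is not given in the sources. Multiplied by merged exon length of GENCODE 29, which holds all 58735 gene identifiers, 100% of non-zero FPKM values came out as whole reads within 0.02 reads, and the authors' scaling equalled median-of-ratios size factors. Log2(FPKM + 1) of the 16426 genes averaging 0.5 FPKM or more was fitted with limma 3.58.1 (R 4.3.3). The fit used trended empirical Bayes, all 9 libraries and group only, with Benjamini-Hochberg adjustment over all genes. The procedure was also run on simulated reads in which all libraries shared the same spread. That setting lacks the departure of the third Vector and KO2 libraries, so it cannot show how the procedure behaves with it. Neighbours are tested genes with midpoints within 5 Mb. To subtract them, each neighbour's deviation from its own mean over the 9 libraries was taken. The median of these deviations was subtracted from the gene in each library, and the fit was repeated. The result can therefore differ from the difference minus the printed median of the neighbours. Members, lists and tests were chosen with earlier results of these data known. Named are all members, near copies and the 3 nearest patterns. Also named are up to 2 rising and 2 falling genes per list by smallest adjusted p against Vector. DHX9, IER5, RGS16, SLC25A13, NAT8L, MDH1, MDH2, PRODH, AC005326.1, AC079781.5 and CTPS2 were named after their values were seen. Some genes under this rule are not reported here. Alternatives covered pseudocount, filter, scaling, weights, limma-voom on recovered reads, neighbours, the replicate block and each library left out.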

Additional observations from a re-analysis of the deposited data

Results flagged for a closer look

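The clones' differences from Vector were not alike for 6 enzymes by the direct limma test of KO2 against KO1, on the log2(FPKM + 1) scale. GOT1 (-1.3), GPT2 (-1.09), ASNS (-0.88), GLUD1 (-0.83) and PYCR1 (-0.75) were lower in KO2, and GLUL (1.5) was higher in KO2, where KO1 had no read. In each of the 6 all 3 libraries of one clone lay on one side of all 3 of the other. Groups of 3 libraries are too small for a test of single outlying libraries.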

How the results depend on the processing

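For the 8 enzymes in 3 comparisons, 498 values under other settings gave 469 on the same side of the threshold and in the same direction where called, 16 that lost the call, 13 that gained it and 0 called values that turned sign. The 16 lost calls were those of ASNS in KO1, ALDH18A1 in KO2 and PYCR1 between the clones. The number of enzymes called in KO1 went from 3 to 6 with library weights and to 5 without Vector replicate 3 and KO2 replicate 3. With a mean of at least 5 FPKM, which leaves ASNS and GLUL untested, it was 3 in KO2 in place of 5. Over all genes, that filter gave 2940, 2407 and 2839 calls in KO1, in KO2 and between the clones, an adjusted p under 0.01 gave 3079, 2362 and 2797, library weights gave 10779, 10061 and 9764, and dropping Vector replicate 3 with KO2 replicate 3, chosen after seeing the data, gave 9335, 8138 and 7834. Fitted without the KO1 libraries, KO2 gave 2963 calls. Leaving out 1 library gave 3705 (without KO1 replicate 2) to 7367 (without Vector replicate 3) in KO1, 3203 (without Vector replicate 1) to 6531 (without Vector replicate 3) in KO2, and 3337 (without KO1 replicate 1) to 6756 (without Vector replicate 3) between the clones, with 3359 without KO1 replicate 2; enzymes called ranged from 2 to 4, 4 to 5 and 5 to 6. The cause of these shifts was not tested beyond the smaller number of genes or libraries. Same-numbered libraries had correlations of -0.2 to 0.14 in their deviations from the group means, and 0 of 9 libraries correlated best with their own number, so the numbers were not taken as pairs. With the replicate block 4911, 3953 and 4428 genes were called, and the enzymes called stayed at 3, 5 and 6. Depth limits GLUL in KO1, whose 0 reads give only a bound, and ASNS, with 64 reads in its lowest KO2 library.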

Other observations

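CTPS2, the second CTP synthase, was too low to be tested over the 9 libraries but was at or near 0 in both clones. It held 70, 81 and 59 reads in the Vector libraries, 0, 1 and 0 in KO1 and 0, 0 and 0 in KO2. CTPS1, its paralog, fell in KO2, so both CTP synthase transcripts were lower in that clone, and any link between them was not tested. Such losses were not particular to CTPS2, which averaged 0.75 FPKM in Vector. Of 13622 genes averaging 1 FPKM or more in Vector, 86 had 0 reads in all KO1 libraries and 61 in all KO2 libraries. CTPS2 lies on the X chromosome, and it was picked after its values were seen.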
